A study of Mus musculus with 6 samples.

Results

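Complement is a cascade of blood and tissue proteins that tags surfaces for removal and calls in inflammatory cells, and 9 of its genes are described here: C1r, C1s, C2, C3, Cfb, Cfd, Cd55, Cd59 and Serping1. They were chosen by symbol, and all 9 were found among the 33682 rows of the deposited gene table, Cfb on 2 rows, of which the more abundant was taken. The sequenced cells were cultured neonatal rat heart cells with wild type given as their genotype, kept in conditioned medium, the supernatant of another culture. For 3 samples the supernatant was that of BMMCs, mast cells grown from bone marrow, that lacked ALOX5 (ALOX5-/-, called Alox5KO medium), and for 3 that of wild-type BMMCs (WT medium). All the mast cells had been treated with TNF-a, so no sample shows the cells without mast cell medium or without TNF-a. ALOX5 is 5-lipoxygenase, the enzyme that starts leukotriene synthesis, and the comparison asks which transcripts of the heart cells depend on it in the mast cells. Age beyond neonatal and the time in medium are not given in the labels.

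The classical pathway starts when the proteases C1r and C1s, carried by C1q on a target surface, cut C4 and C2. The product cleaves C3, the protein on which all complement pathways meet, and the alternative pathway amplifies C3 cleavage through factor B (Cfb) and factor D (Cfd). Serping1 encodes C1 inhibitor, the serpin that inactivates C1r and C1s, while Cd55 and Cd59 are membrane-anchored proteins that protect the cell's own surface. Most circulating complement is made in the liver, but fibroblasts and other tissue cells also make components, and inflammatory cytokines raise several of them.

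Reads recovered from the deposited values numbered between 14955850 and 15766187 per library with Alox5KO medium and between 13284088 and 14389010 with WT medium. The labels call the cells cardiomyocytes and the design text names a fibroblast culture. The median of 10 fibroblast markers was between 358 and 423 FPKM (fragments scaled to gene length and library size) with Alox5KO medium and between 871 and 954 with WT medium, whereas the median of 10 cardiomyocyte markers was between 1.26 and 2.02 FPKM with Alox5KO medium and between 0.556 and 0.657 FPKM with WT medium. The cardiomyocyte label is thus not borne out by its markers, with Myl2 at 0 in all 6 libraries, although Tnnt2 averaged 79.9 ± 10.6 FPKM with Alox5KO medium and 23.0 ± 6.92 FPKM with WT medium (SD, n = 3 each). WT-medium replicate 3 stood apart from the other libraries on the second principal component, which held 11.7% of the variance. Without it the calls of all 6 tested genes below stood. No label says that replicates were separate cultures, so p-values reflect a spread that may be technical.

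Complement transcripts were mostly lower with Alox5KO medium. Of the 9 genes, 6 had a mean of at least 1 FPKM over the 6 samples and were tested. C3, Cd55, Serping1, C1r and C1s were lower and Cd59 was higher (limma, Benjamini-Hochberg adjusted p under 0.05 over all genes). Among all 12341 tested genes 20.7% passed, 10.0% higher and 10.6% lower. The 6 genes did not overlap between the groups, as was so for 37.6% of tested genes. Their median log2 fold change was -0.90, beside -0.00082 over all genes tested. The other 3, C2, Cfb and Cfd, lay below the limit. In bulk RNA, fewer cells of a type and less RNA per cell cannot be told apart.

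**Figure D1:**
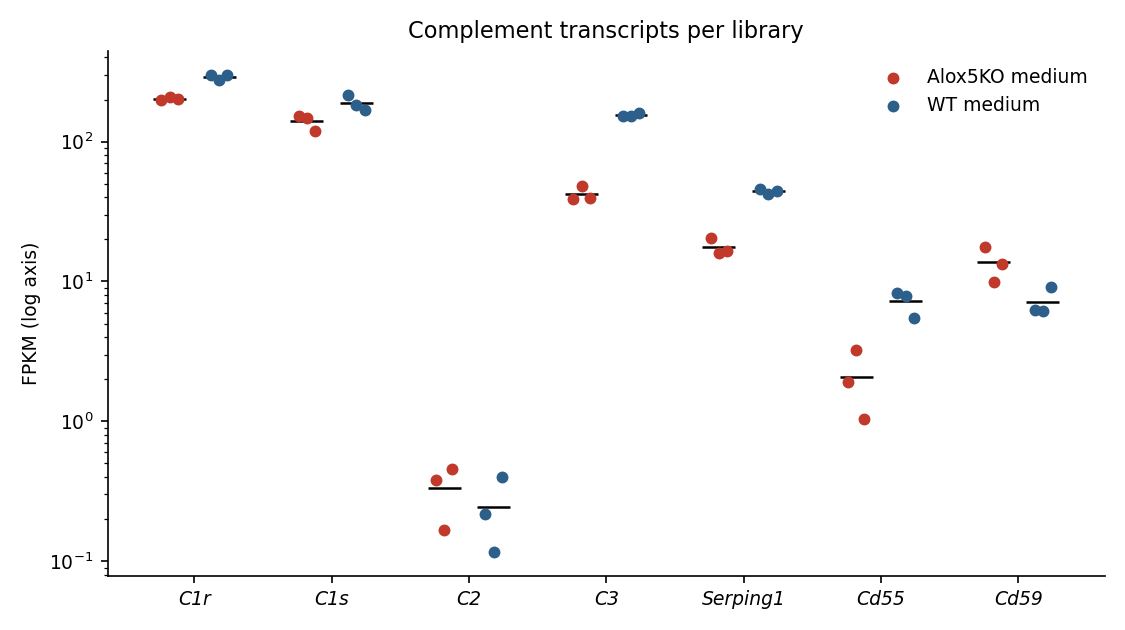
FPKM on a log axis for 7 complement genes in each library, with Alox5KO medium (red) left of WT medium (blue), points for libraries and bars for group means. The groups are apart for 6 genes and overlap for C2, while Cfb and Cfd are not drawn because most of their values are 0.

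The C1 proteases were the most abundant of the 9. C1r (ENSRNOG00000011796, chromosome 4, 157125998 to 157136829, plus strand, in the table's coordinates) had 197, 209 and 201 FPKM with Alox5KO medium, against 298, 275 and 301 FPKM with WT medium. Every Alox5KO-medium library was below every WT-medium library, and the values within each group were close. C1r fell 1.44-fold, with a log2 fold change of -0.53 (standard error, SE, 0.09; adjusted p = 0.0039, limma with Benjamini-Hochberg). It ranked 325 by mean level over all genes.

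C1s (ENSRNOG00000011971, chromosome 4, 157143592 to 157155609, minus strand) lies 6762 bases from C1r. It had 154, 147 and 118 FPKM with Alox5KO medium, against 216, 183 and 169 FPKM with WT medium. The groups were apart by a narrow margin, the highest Alox5KO-medium library lying near the lowest WT-medium one. C1s fell 1.36-fold, with a log2 fold change of -0.44 (SE 0.13; adjusted p = 0.049, limma with Benjamini-Hochberg). This call was lost in 9 of 16 alternatives, among them the omission of any library but WT-medium replicate 3, with adjusted p of up to 0.19 (limma, Benjamini-Hochberg).

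The third protease gene of the same stretch of chromosome 4, C1rl, encodes a C1r-like protease and ends 2551 bases before C1r. It averaged 4.35 ± 0.880 FPKM with Alox5KO medium and 9.92 ± 0.503 FPKM with WT medium (SD, n = 3 each), and fell by 1.04 on the log2 scale (limma, Benjamini-Hochberg adjusted p = 0.00079). All 3 neighbouring genes were therefore lower with Alox5KO medium, C1s under the limits above.

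C1 inhibitor was lower as well. Serping1 (ENSRNOG00000007457, chromosome 3, 72161189 to 72171078, minus strand) had 20.6, 16.0 and 16.6 FPKM with Alox5KO medium, against 45.8, 42.4 and 44.0 FPKM with WT medium. The groups were far apart beside their spread. Serping1 fell 2.48-fold, with a log2 fold change of -1.27 (SE 0.11; adjusted p = 7.2e-05, limma with Benjamini-Hochberg), and remained called in all 16 alternatives, at -1.38 to -1.21. Among these, median-ratio scaling, which divides each library by a factor from its median gene, was no separate check. Its factor was the same, 1.005, in all libraries.

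Because FPKM is scaled to gene length, the proteases can be set against their inhibitor within each library. The ratio of C1r to Serping1 was 9.54, 13.0 and 12.1 with Alox5KO medium, against 6.52, 6.50 and 6.85 with WT medium. The ratio of C1s to Serping1 was 7.45, 9.17 and 7.11 with Alox5KO medium, against 4.73, 4.31 and 3.84 with WT medium. Neither ratio overlapped between the groups. The log2 difference was 0.79 for C1r and 0.88 for C1s, each with p = 0.1 by a two-sided exact permutation test, the smallest p that 3 samples against 3 allow. The ratio of C1r to C1s averaged 1.47 ± 0.211 with Alox5KO medium and 1.56 ± 0.207 with WT medium (SD, n = 3 each) and overlapped between the groups, with p = 0.6 by the exact permutation test. These ratios were chosen after the values were seen.

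**Figure D2:**
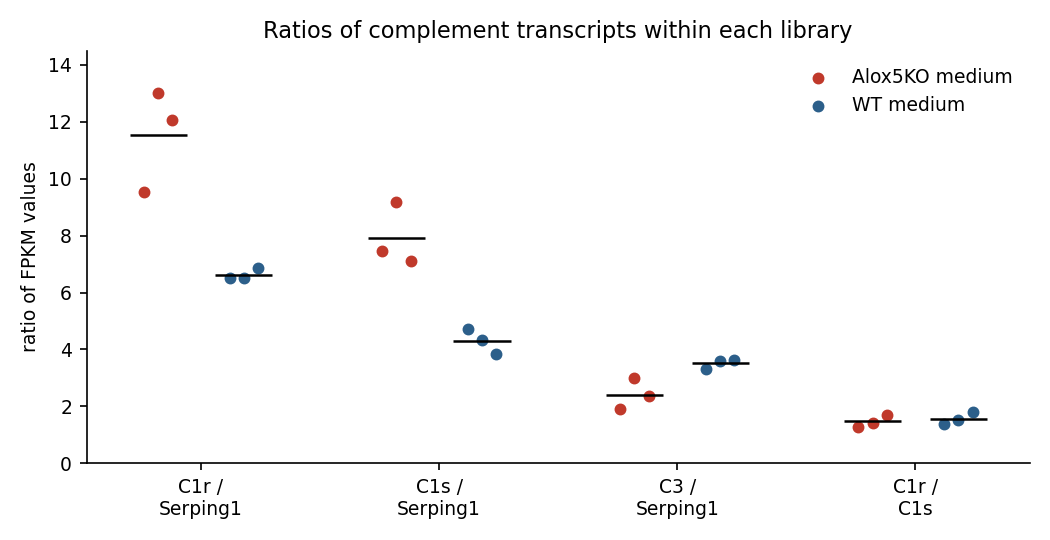
Ratios of FPKM values within each library, for C1r, C1s and C3 over Serping1 and for C1r over C1s, with Alox5KO medium (red) left of WT medium (blue) and bars for group means. Both C1 proteases have higher ratios to Serping1 with Alox5KO medium, and C3 has lower ones.

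The central component was lower in every Alox5KO-medium library. C3 (ENSRNOG00000046834, chromosome 9, 9721105 to 9747167, plus strand) had 39.1, 47.8 and 39.3 FPKM with Alox5KO medium, against 151, 152 and 160 FPKM with WT medium. The WT-medium libraries were nearly equal, and every Alox5KO-medium library lay far below them. C3 fell 3.67-fold, with a log2 fold change of -1.86, an SE of 0.11 and a 95% interval of -2.09 to -1.62 (limma, Benjamini-Hochberg adjusted p = 5.7e-06). It rested on 10185 reads with Alox5KO medium and 33379 with WT medium. Relative to Serping1, C3 averaged 2.41 ± 0.546 with Alox5KO medium and 3.51 ± 0.171 with WT medium (SD, n = 3 each), without overlap and with p = 0.1 by the same exact permutation test.

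The C3 convertase partners had hardly any reads. C2, the protease subunit of the classical convertase (ENSRNOG00000051235, chromosome 20, 4542340 to 4561152, minus strand), had 15, 7 and 18 reads with Alox5KO medium, against 8, 4 and 15 with WT medium, which is 0.380, 0.166 and 0.457 FPKM with Alox5KO medium and 0.218, 0.117 and 0.399 FPKM with WT medium. The groups overlapped. In a fit without the limit on low values its log2 fold change was 0.10, with a 95% interval of -0.19 to 0.39 (limma, Benjamini-Hochberg adjusted p = 0.66). Cfb, its counterpart in the alternative pathway, had 1 read in Alox5KO-medium replicate 1 and 2 reads in WT-medium replicate 3, and was listed at 0 in the other 4 libraries.

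These low values say little about the transcripts, since the annotated rows of Cfb and C2 lie over each other on the same strand. The longer Cfb row (ENSRNOG00000000419, chromosome 20, 4536203 to 4561066) covers 99.5% of the span of C2. It also covers 100% of a shorter Cfb row (ENSRNOG00000051158, 4536212 to 4542073), which was listed at 0 throughout. The sources used here do not give how reads in shared stretches were counted, and the part of the overlap in the low values was not tested.

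**Figure D3:**
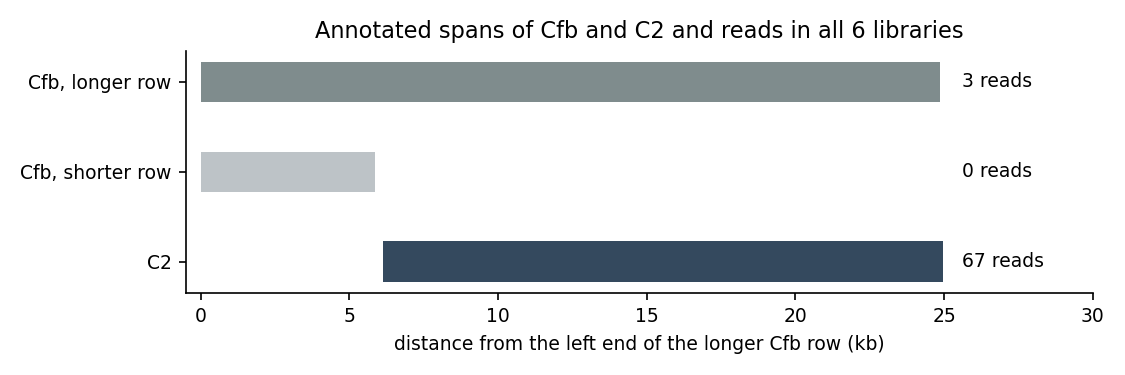
Annotated spans of both Cfb rows and of C2, in kilobases from the left end of the longer Cfb row, with the reads summed over all 6 libraries at the right. The longer Cfb row (3 reads) covers the shorter one (0 reads) and nearly all of C2 (67 reads).

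Cfd, the protease that activates factor B and is well known as adipsin from fat cells (ENSRNOG00000033564, chromosome 7, 12634216 to 12635943, minus strand), was listed at 0 in all 3 Alox5KO-medium libraries and had 1 read in WT-medium replicate 3. Its row lies wholly within the span of Arhgap45 on the same strand, which had 53 reads over the 6 libraries. No difference in Cfb or Cfd was detectable at this depth, where 3 reads on a gene of 1 kilobase would give between 0.185 and 0.228 FPKM, a limit of counting error only.

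The membrane regulators moved in opposite directions. Cd55, decay-accelerating factor, which breaks up C3 convertases (ENSRNOG00000003927, chromosome 13, 47126741 to 47154292, minus strand), had 1.92, 3.21 and 1.05 FPKM with Alox5KO medium, against 8.32, 7.91 and 5.53 FPKM with WT medium. The groups were apart, and relative to their level the Alox5KO-medium libraries differed more among themselves than the WT-medium ones. Cd55 fell 3.52-fold in group means, with a log2 fold change of -1.48 (SE 0.27; adjusted p = 0.0064, limma with Benjamini-Hochberg). It rested on 300 reads with Alox5KO medium and 931 with WT medium, and with a pseudocount of 0.1 in place of 1 the log2 fold change was -1.88.

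Cd59, which blocks assembly of the membrane attack pore (ENSRNOG00000042821, chromosome 3, 94010475 to 94028621, plus strand), had 17.7, 9.90 and 13.4 FPKM with Alox5KO medium, against 6.27, 6.20 and 9.09 FPKM with WT medium. Alox5KO-medium replicate 2 lay close to WT-medium replicate 3, and the other libraries were well apart. Cd59 rose 1.90-fold in group means, with a log2 fold change of 0.83, an SE of 0.22 and a 95% interval of 0.33 to 1.33 (limma, Benjamini-Hochberg adjusted p = 0.030). The call was lost in 5 of 16 alternatives, which are the fit without the limit on low values and those without Alox5KO-medium replicate 1 or 3 or WT-medium replicate 1 or 2, with adjusted p of up to 0.10 (limma, Benjamini-Hochberg).

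The order of the levels was shared by the groups down to Serping1. In both it began with C1r, C1s, C3 and Serping1, with no overlap among these 4 within a group. With Alox5KO medium Cd59 came next, overlapping Serping1, and Cd55 stood below it without overlap. With WT medium Cd55 and Cd59 averaged 7.25 ± 1.51 and 7.19 ± 1.65 FPKM (SD, n = 3 each) and overlapped. C2, Cfb and Cfd had the lowest listed values in both groups, under the limits of their overlapping rows given above.

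Among the other complement genes of a list set out by role, the called ones were all lower. Of 45 symbols 42 were in the table and 13 were tested, of which 4 fell, 0 rose and 9 did not pass, with a median log2 fold change of -0.30. At an unadjusted p under 0.05 the same fit had 5 lower and 0 higher. The share of all genes at that unadjusted threshold was not counted, so this count cannot be set against a background and is not read as a result. The 4 were C1rl, C5ar2, Clu and Cr1l. The share called at adjusted p under 0.05 over all genes tested was 20.7% in either direction, 10.0% higher and 10.6% lower.

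Clu, clusterin, a chaperone that also restrains the membrane attack complex, averaged 13.1 ± 1.94 FPKM with Alox5KO medium and 27.7 ± 6.43 FPKM with WT medium (SD, n = 3 each), and fell by 1.01 on the log2 scale (limma, Benjamini-Hochberg adjusted p = 0.0045). Cr1l, or Crry, is the rodent membrane protein that controls C3 cleavage on the cell's own surface. It had 32.0, 31.0 and 29.5 FPKM with Alox5KO medium, against 39.2, 38.0 and 37.3 FPKM with WT medium. That is a fall by 0.30 on the log2 scale (limma, Benjamini-Hochberg adjusted p = 0.038), lost in 10 of 16 alternatives, with the omission of each of the 6 libraries among them and adjusted p of 0.036 to 0.16 over all 16 (limma, Benjamini-Hochberg).

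Of the receptors for the cleavage fragment C5a, C5ar2 was the more abundant and fell. It had 2.95, 4.50 and 2.28 FPKM with Alox5KO medium, against 9.04, 7.70 and 7.22 FPKM with WT medium, a fall by 1.11 on the log2 scale (limma, Benjamini-Hochberg adjusted p = 0.0032). C5ar1, the signalling receptor, was below the limit on low values, with 0.811, 0.633 and 0.643 FPKM with Alox5KO medium, against 0.292, 0.234 and 0.248 FPKM with WT medium. In the fit without that limit, where 12.1% of 19519 genes passed and 5.78% were higher, C5ar1 rose by 0.43 (limma, Benjamini-Hochberg adjusted p = 0.035) on 63 reads with Alox5KO medium and 21 with WT medium. Adding 1 FPKM shrinks the log2 change of low genes such as C5ar1. In group means C5ar1 rose 2.70-fold and C5ar2 fell 2.46-fold. The difference between the 2 receptors' fold changes was not tested. C3ar1, the receptor for C3a, had 3 reads with Alox5KO medium and 14 with WT medium and did not pass that fit.

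**Figure D4:**
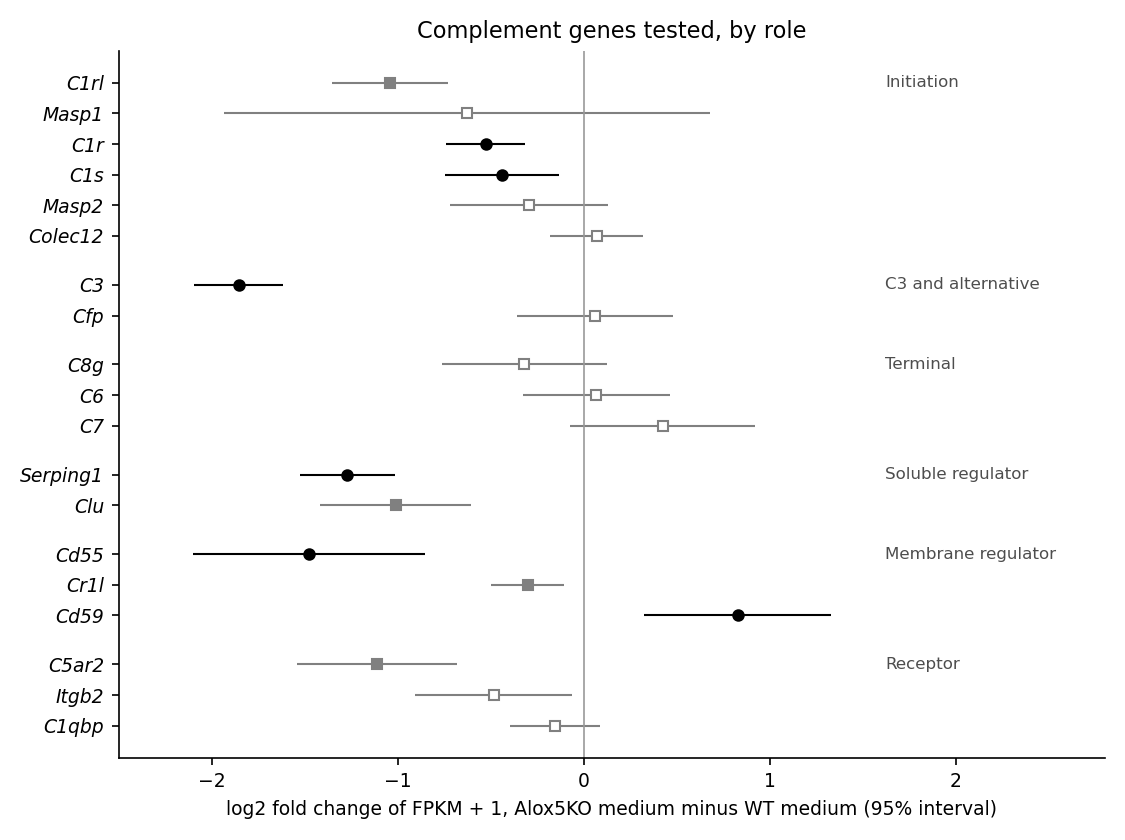
Log2 fold changes of FPKM + 1, Alox5KO medium minus WT medium, with 95% intervals from limma, for the 19 complement genes tested. Circles are the 6 main genes and squares the other 13, filled where the adjusted p was under 0.05, and Cd59 is the filled symbol to the right of 0.

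The terminal components and lectin pathway genes that were tested showed no call. The terminal genes C5, C8a, C8b and C9 lay below the limit and were not tested. The same held for the lectin pathway genes Mbl1, Fcna, Fcnb, Colec10 and Colec11. C7, a subunit of the membrane attack complex, averaged 15.8 ± 4.44 FPKM with Alox5KO medium and 11.4 ± 2.23 FPKM with WT medium (SD, n = 3 each), with a log2 fold change of 0.42 and a 95% interval of -0.07 to 0.92 (limma, Benjamini-Hochberg adjusted p = 0.22). C6 and C8g had 95% intervals of -0.33 to 0.46 and -0.76 to 0.12. The lectin pathway protease Masp1 had 2.85, 0.924 and 2.83 FPKM with Alox5KO medium, against 2.70, 1.96 and 8.55 FPKM with WT medium, a log2 fold change of -0.63 that was -0.12 without WT-medium replicate 3. Masp2, the scavenger receptor gene Colec12, the properdin gene Cfp, the leukocyte integrin chain Itgb2 and the C1q-binding protein gene C1qbp did not pass either. C1qbp was abundant, with 195 ± 7.05 FPKM with Alox5KO medium and 217 ± 22.7 FPKM with WT medium (SD, n = 3 each).

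Several partners that the cascade needs had few or no reads. The C1q chains C1qa, C1qb and C1qc had at most 2 reads per group, and C4a and C4b had 2 and 2 reads with Alox5KO medium and 2 and 6 with WT medium. The C4 genes are near-identical copies, so their reads are uncertain. Cfi, which cuts C3b, had 2 reads with Alox5KO medium and 14 with WT medium and did not pass the fit without the limit on low values. Unlike Cfi and C3ar1, the regulator gene Susd4 and the receptor genes Itgax and Cd93 had more reads with Alox5KO medium. They had 19, 48 and 74 reads with Alox5KO medium and 3, 16 and 32 with WT medium, and did not pass that fit either. Of the 29 genes of this list below the limit, 5 were at 0 in all 6 libraries.

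Genes of the acute-phase and NF-kB response were lower in larger number. Of 18 tested, 14 fell and 1 rose, with a median log2 fold change of -1.50, beside 10.6% lower and 10.0% higher over all genes tested. The 1 that rose was Cp, by 1.43 on the log2 scale, and Stat3, Cebpd and Il1r1 did not pass. The lipopolysaccharide-binding protein gene Lbp averaged 9.57 ± 2.74 FPKM with Alox5KO medium and 133 ± 7.92 FPKM with WT medium (SD, n = 3 each), and the chemokine gene Cxcl1, the NF-kB inhibitor gene Nfkbia and the haptoglobin gene Hp fell by 2.16, 1.30 and 2.40 on the log2 scale. Of 16 tested interferon genes 7 rose and 4 fell, with a median of 0.18. Among these Cxcl10, Irf7 and Ifit3 rose by 2.97, 2.45 and 2.27, and the receptor chain gene Ifnar1 fell by 0.74. With WT medium Cxcl10 and Ifit3 averaged only 0.549 and 0.196 FPKM, on 26 and 17 reads, below the limit of 1 FPKM. Their sizes are therefore uncertain, and over the alternatives Cxcl10 ran from 2.84 to 4.32 and Ifit3 from 2.09 to 4.64. Both directions were known when these lists were chosen, so they are not independent support for the complement values.

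The tested genes most like C3 over the 6 libraries, by Pearson r of log2(FPKM + 1), were Ptx3, Csf2, Slc20a1, Tgm2 and Pfkfb4, each with r between 0.998 and 0.999. For Serping1 they were Opn3, Dtx2, Il6, Il13ra2 and Lbp, with r between 0.997 and 0.999. The 6 points fall into 2 groups, so these values mostly show the difference between the groups, and genes named for clones or loci were left out.

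Marker lists of cell types differed between the groups in part. Beside the counts below, 37.6% of all tested genes did not overlap between the groups. Some markers lay below the limit of 1 FPKM and so outside that share, and the counts are descriptive only. Of the 10 cardiomyocyte markers, Actn2, Myh6, Myh7, Pln and Tnnt2 lay wholly above the WT-medium libraries, 0 lay wholly below, and 5 overlapped. The 10 mast cell markers summed to between 25.0 and 34.5 FPKM with Alox5KO medium and between 47.4 and 64.9 FPKM with WT medium. Most of it was Cpa3, at 19.6 ± 4.19 FPKM with Alox5KO medium and 45.4 ± 7.69 FPKM with WT medium (SD, n = 3 each). Cpa3 and Gata2 lay wholly below the WT-medium libraries, Kit lay wholly above them, and the other 7 overlapped. The list's median overlapped too, at 0.014 to 0.091 FPKM with Alox5KO medium and 0 to 0.089 FPKM with WT medium. Tpsb2, Fcer1a and Ms4a2 were at 0 in all libraries. The 10 macrophage and monocyte markers summed to between 23.9 and 39.2 FPKM with Alox5KO medium and between 32.9 and 37.0 FPKM with WT medium, with Cd163 at 0 throughout. Cd14 led that list, at 15.5 ± 1.70 FPKM with Alox5KO medium and 20.8 ± 0.533 FPKM with WT medium (SD, n = 3 each). The 8 smooth muscle and pericyte markers summed to between 141 and 254 FPKM with Alox5KO medium and between 61.6 and 83.8 FPKM with WT medium, while their median ran from 6.34 to 8.08 FPKM with Alox5KO medium and from 5.47 to 6.65 FPKM with WT medium, and overlapped. The sum was led by Cnn1, at 122 ± 44.2 FPKM with Alox5KO medium and 12.7 ± 5.55 FPKM with WT medium (SD, n = 3 each). Of the 8, 4 lay wholly above the WT-medium libraries and 2, Kcnj8 and Abcc9, wholly below them. The 7 endothelial markers in the table summed to between 4.08 and 4.82 FPKM with Alox5KO medium and between 4.72 and 6.97 FPKM with WT medium, led by Tek, with Emcn and Cldn5 at 0. The 5 hepatocyte markers in the table summed to at most 0.138 FPKM with Alox5KO medium and 0.280 FPKM with WT medium, led by Apoa1, with Ttr and Fgb at 0. In the fibroblast list the sum was between 8585 and 9567 FPKM with Alox5KO medium and between 10037 and 11063 with WT medium. Its members did not share a direction. Dcn averaged 134 ± 66.3 FPKM with Alox5KO medium and 2219 ± 711 FPKM with WT medium (SD, n = 3 each), and Fn1, Lum and Pdgfra also lay wholly below the WT-medium libraries. Col3a1 and Tcf21 lay wholly above them, and the other 4, with the most abundant, Col1a1, at 3741 ± 483 FPKM with Alox5KO medium and 3290.2 ± 577 FPKM with WT medium (SD, n = 3 each), overlapped between the groups. The part of these differences in the complement values was not tested.

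**Figure D5:**
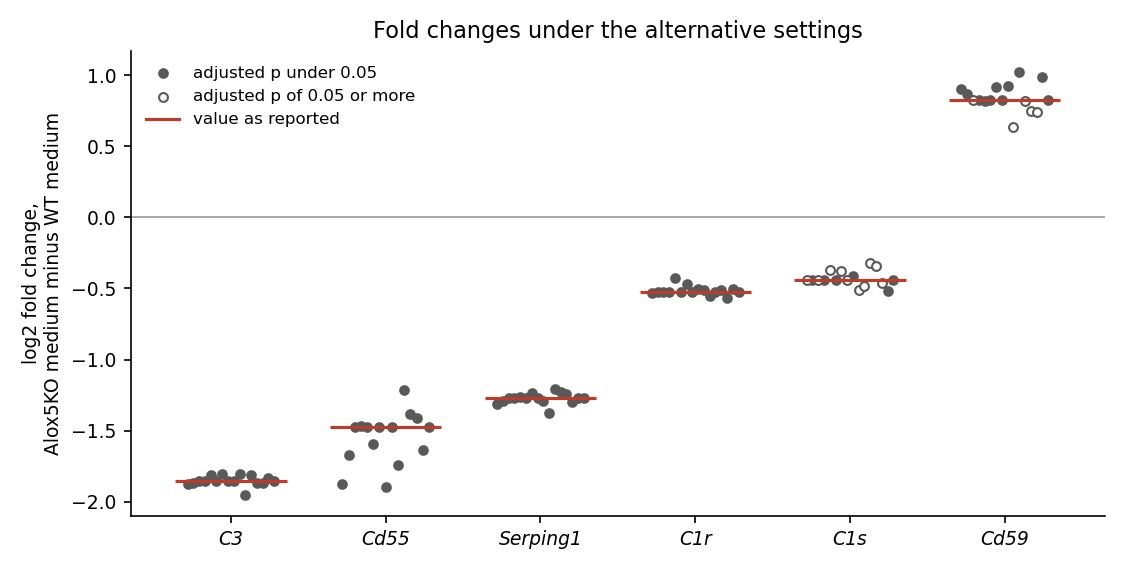
Log2 fold changes of the 6 tested genes, Alox5KO medium minus WT medium, under each alternative setting (points) and as reported (red lines), filled where the adjusted p was under 0.05. C3, Cd55, Serping1 and C1r are filled throughout, while C1s and Cd59 have open points, and no point crosses 0.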

How the data were processed

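Per the labels' protocols, TRIzol was used for extraction and the NEBNext Ultra kit for libraries. The submitters' processing notes name HISAT2 2.0.5, fastp, CASAVA 1.8, DESeq2 1.20.0, featureCounts 1.5.0-p3 and the build mm10, with no role for any. The labels give mouse as the organism, but 32883 of 33682 rows carry rat Ensembl identifiers and 0 carry mouse ones, and no source used here gives the rat build. The authors deposited FPKM values, 1 column per sample, with gene lengths and positions, per the file headers.

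FPKM times gene length stepped in whole reads (100% of values above 0 within 0.05 reads), which gave the reads. The library size behind the deposited FPKM was not the plain sum of these reads, but between 0.990 and 1.028 times that sum. The median-ratio factor of the deposited values was 1.005 in every library, so they were already equal on that scale. The 12341 genes averaging 1 FPKM or more were tested as log2(FPKM + 1), a scale that understates the change of low genes, with limma 3.58.1 in R 4.3.3 (mean-variance trend, robust prior, two-sided, Benjamini-Hochberg at 0.05), without a replicate block, as Alox5KO medium minus WT medium. The fit was tested on simulated data.

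The genes, lists and alternatives were chosen with earlier results of these data known. All 9 genes are named, with every called complement gene of the list, up to 4 context genes per list by p, the 5 genes most like C3 and Serping1, and the most abundant marker per list. Other genes were named after their values were seen. No source used here says whether counting used strand. Promoter motifs were not searched, since the sequence tables used here are of mouse and the cells are rat.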

Additional observations from a re-analysis of the deposited data

How the results depend on the processing

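C3, C1r, Cd55 and Serping1 kept their direction and their call in all alternatives run, with C3 between -1.95 and -1.81, C1r between -0.57 and -0.43 and Cd55, in the 15 that tested it, between -1.89 and -1.22. Median-ratio scaling, with the same factor in all 6 libraries, could not change a call. C1s kept its direction but not its call, at -0.44 without a filter on low values and without the trend and robust prior, -0.37 with quantile normalization and -0.38 with TPM scaling, and between -0.52 and -0.32 with 1 library left out. Cd59 lost its call without the filter, at 0.83, and ran from 0.63 to 1.02 with 1 library left out. The members called higher then numbered 0 without the filter and between 0 and 1 with 1 library left out, and those called lower 4 or 5. Over all genes, leaving out 1 library gave between 791 and 1226 higher and between 862 and 1325 lower, the fewest without WT-medium replicate 1, against 1238 and 1313 with all 6. Of the other complement genes 1 was higher without the filter, C5ar1, and 1 with the replicate block, C7, whose adjusted p was then 0.024 (limma, Benjamini-Hochberg). Itgb2 passed on recovered reads with limma-voom. Genes that did not pass changed sign with 1 library left out in 3 cases, all of C6 and Cfp. With 1 library left out C6 ran from -0.033 to 0.16, Cfp from -0.081 to 0.14, and the log2 difference of the ratio of C1r to C1s from -0.20 to 0.014, positive without Alox5KO-medium replicate 1 (0.0033) or WT-medium replicate 3. The cause was not tested. Same-numbered samples did not deviate together in every pair (r = -0.10, 0.10 and 0.17), so the number was not taken to pair them, and the replicate block gave 1277 higher and 1375 lower genes over the table and changed no call of the 6 genes. At this depth no difference in Cfb or Cfd was detectable, and C2 rested on 67 reads in all. Their overlapping rows limit these genes as well.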
